A study of Homo sapiens with 11 samples.

Results

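Classical cadherins are the adhesion receptors of adherens junctions, and 10 of the 58721 genes counted in A375 cells are described here: CDH1, CDH2, CDH3, CDH4, CDH6, CDH10, CDH11, CDH13, CDH15 and CDH19. They were taken by name, whatever their values, and found in the count table through their GENCODE release 29 identifiers. By sequence class, CDH1, CDH2, CDH3, CDH4 and CDH15 are the 5 type I members and CDH6, CDH10, CDH11 and CDH19 the 4 type II members, while CDH13 lacks the transmembrane and cytoplasmic parts and is held in the membrane by a GPI anchor. CDH5, CDH7, CDH8, CDH9, CDH12, CDH18, CDH20, CDH22 and CDH24 belong to the same classes and are treated further on as a separate list of 9 genes.

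A375 is an established melanoma line with an activating BRAF mutation and was grown here in serum-supplemented DMEM; the labels give its genotype as WT in every sample. Poly(A) RNA was sequenced from 5 withdrawn samples, 5 persister samples and 1 parental sample. Persister cells had been kept in 2 nM trametinib, an inhibitor of the MEK kinases below BRAF, for 8 weeks. Withdrawn cells had gone through the same selection and were collected after 4 weeks without the drug, and parental cells had no treatment. Each withdrawn sample carries the number of the persister culture in its name, so that the same number marks the same culture. Separate selection of the persister cultures is not stated in the labels, and p-values here reflect how these samples vary among themselves, possibly for technical reasons. The parental group is a single library without a spread of its own, and it was taken to vary like the others.

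A cadherin binds a cadherin on the neighbouring cell through its extracellular repeats, which need calcium, and type I and type II cadherins hold on to p120-catenin, beta-catenin and, through alpha-catenin, actin by their cytoplasmic tail. Different members sort cells into separate layers. Melanocytes in the epidermis adhere to keratinocytes through E-cadherin (CDH1) and P-cadherin (CDH3), and melanoma cells often carry N-cadherin (CDH2) in place of E-cadherin. Several type II members are known from mesenchyme, kidney, neurons and glial precursors, and CDH19 from Schwann cell precursors.

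Chromosome 16 carries 5 of the 10 genes (GRCh38, 1-based). CDH3 (68636189 to 68722616, plus strand) ends 14608 bases before CDH1 (68737225 to 68835548, plus strand) begins, and CDH11 (64943753 to 65126112, minus strand), CDH13 (82626803 to 83800640, plus strand) and CDH15 (89171767 to 89195492, plus strand) lie apart from them. CDH2 (27950966 to 28177446, minus strand) and CDH19 (66501083 to 66604138, minus strand) are on chromosome 18, CDH6 (31193750 to 31329146, plus strand) and CDH10 (24487100 to 24644978, minus strand) on chromosome 5, and CDH4 (61252426 to 61940617, plus strand) on chromosome 20. Whether the counting used strand is not given in the sources used here, so reads from annotated antisense transcripts, which share 11.1% of the exon bases of CDH3, 5.62% of CDH1, 2.75% of CDH2, 1.26% of CDH13 and 1.01% of CDH6, cannot be told apart from those of the genes. A processed pseudogene on the same strand, DUX4L51, further shares 8.96% of the exon bases of CDH6, and a transcript of unknown status shares 1.90% of those of CDH11.

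RefSeq promoter sequences (GRCh38.p14, 250 bases before to 50 after a start site) were held for 4 of the 10 genes, and they are shown because CDH19 moved one way while CDH4, CDH10 and CDH2 moved the other way when the drug was withdrawn. Searched on both strands were the E-box CAGGTG, which SNAI and ZEB factors can bind, the SOX motifs ACAAAG and ACAATG, and the AP-1 motif TGANTCA; a match is printed in capitals. These motifs do not overlap in the windows shown, and all sequences run 5′ to 3′ on the strand of the gene.
CDH19: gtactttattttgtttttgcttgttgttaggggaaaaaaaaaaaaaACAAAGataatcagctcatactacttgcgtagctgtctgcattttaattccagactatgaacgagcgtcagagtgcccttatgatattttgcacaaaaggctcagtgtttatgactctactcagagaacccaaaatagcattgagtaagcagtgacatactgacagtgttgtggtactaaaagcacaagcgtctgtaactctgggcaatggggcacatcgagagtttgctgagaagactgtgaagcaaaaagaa
CDH4: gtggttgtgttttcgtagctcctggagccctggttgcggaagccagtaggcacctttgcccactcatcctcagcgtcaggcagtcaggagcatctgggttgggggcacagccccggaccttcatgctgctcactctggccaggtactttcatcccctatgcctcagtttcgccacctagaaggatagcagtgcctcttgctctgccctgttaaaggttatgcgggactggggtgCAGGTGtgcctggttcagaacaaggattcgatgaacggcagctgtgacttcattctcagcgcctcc
CDH10: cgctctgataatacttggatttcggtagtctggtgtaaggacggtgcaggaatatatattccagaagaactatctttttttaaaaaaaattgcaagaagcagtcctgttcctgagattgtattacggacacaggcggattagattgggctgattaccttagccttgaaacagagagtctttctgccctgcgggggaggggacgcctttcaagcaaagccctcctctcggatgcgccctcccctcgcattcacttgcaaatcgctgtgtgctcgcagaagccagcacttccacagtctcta
CDH2: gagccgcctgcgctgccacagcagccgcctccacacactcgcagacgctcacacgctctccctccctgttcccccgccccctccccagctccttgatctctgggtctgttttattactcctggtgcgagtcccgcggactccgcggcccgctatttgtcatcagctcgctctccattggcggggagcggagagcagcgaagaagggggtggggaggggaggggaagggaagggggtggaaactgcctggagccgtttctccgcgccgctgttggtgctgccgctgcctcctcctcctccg
The CDH19 window (chr18:66604041-66604340, minus strand) had a GC content of 39.3%, against a median of 58.7% over the 35116 promoters of the table, and held ACAAAG from base -204 to -199 before the start site, directly after a run of A. The printed CDH4 window (chr20:61499171-61499470, plus strand, 57.3% GC) held CAGGTG from base -16 to -11. That of a CDH4 start further downstream (chr20:61599511-61599810, plus strand, 62.0% GC) held no match. Both CDH4 windows lie inside the gene, which begins at base 61252426, and no window at that first base was held. No match was found in the CDH10 window (chr5:24644929-24645228, minus strand, 48.3% GC) or in that of the upstream CDH2 start (chr18:28177081-28177380, minus strand, 67.0% GC), while the window of a second CDH2 start (chr18:28036592-28036891) held TGANTCA from base -102 to -96. Of all promoters of this length 16.1% held ACAAAG, 10.8% ACAATG, 24.5% either SOX motif, 20.6% CAGGTG and 7.71% TGANTCA, so each motif is common and a match is a description of letters, not of binding.

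Total counts ranged from 56513920 to 82984566 per library. Levels of one gene across libraries are given as CPM, that is, counts put on a common library size with TMM factors, and a call means an adjusted p under 0.05 in edgeR's quasi-likelihood test, fitted on all 11 libraries and adjusted by Benjamini-Hochberg over the 23693 genes tested. All 10 cadherins were tested, but CDH1, CDH6 and CDH15 had under 10 counts in the parental library. CDH6 and CDH15 were tested through their counts in withdrawn and persister libraries. CDH1 reached 10 counts in persister libraries only, so for CDH1 the filter favoured a rise over parental cells and a fall after withdrawal. Persister 1 and persister 5 stood apart in transcripts of cycling cells: MKI67, a proliferation marker, had between 552 and 684 CPM in withdrawn libraries, 154 and 45.4 CPM in persister 1 and 5, between 496 and 707 CPM in the other 3 persister libraries and 865 CPM in parental cells. Fold changes of CDH1, CDH3 and CDH10, each highest in one of those libraries, are therefore given with and without them. CDH6 was also highest in persister 5, and CDH15 in persister 1. For CDH6 and CDH15, leaving out both libraries changed no call in withdrawn against persister or persister against parental cells. The part of slower cycling in those values was not tested. In bulk RNA, fewer cells that express a gene and less of its RNA per cell cannot be told apart.

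**Figure D1:**
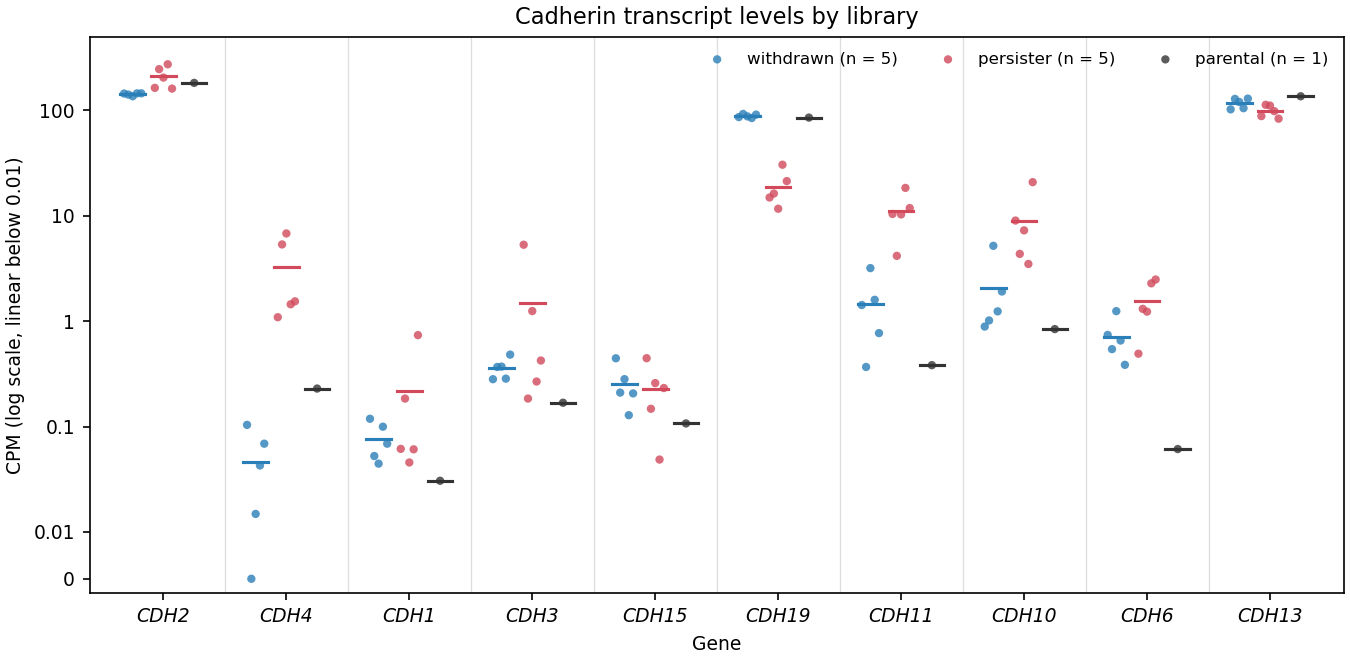
CPM of the 10 cadherins in each library, on a log axis that is linear below 0.01, for withdrawn, persister and parental cells from left to right within each gene. Points are libraries and short lines group means; CDH2, CDH13 and CDH19 lie above 10 CPM in every library, and the CDH4 points of withdrawn cells lie below all others of that gene.

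After drug withdrawal 1 cadherin was called higher (CDH19) and 5 were called lower (CDH2, CDH4, CDH6, CDH10 and CDH11) than in persister cells, while CDH1, CDH3, CDH13 and CDH15 were not called. Over all genes tested, 24.5% were called higher and 28.0% lower in that comparison. In persister cells, set against parental cells, CDH6 and CDH11 were called higher and CDH19 lower, and 7 were not called, beside 16.1% of all genes called higher and 15.1% lower. None of the 10 was called in withdrawn cells against parental cells by edgeR, where 0.312% of all genes were called higher and 0.118% lower. In that last comparison 1 cadherin (CDH6) had an unadjusted p under 0.05, DESeq2 called 1 of the 10 and limma-voom 0. The median log2 fold change of the 10 was -1.31 in withdrawn against persister cells (-0.03 over all genes tested), 2.95 in persister against parental cells (0.09) and 1.16 in withdrawn against parental cells (0.05). Without persister 1 and persister 5, 1 cadherin was called higher and 4 lower in withdrawn against persister cells, 4 higher and 1 lower in persister against parental cells, and 1 higher in withdrawn against parental cells. In that fit, over all 23075 genes tested, 26.1% were called higher and 28.7% lower in withdrawn against persister cells, 20.1% higher and 18.8% lower in persister against parental cells, and 5.38% higher and 3.66% lower in withdrawn against parental cells.

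**Figure D2:**
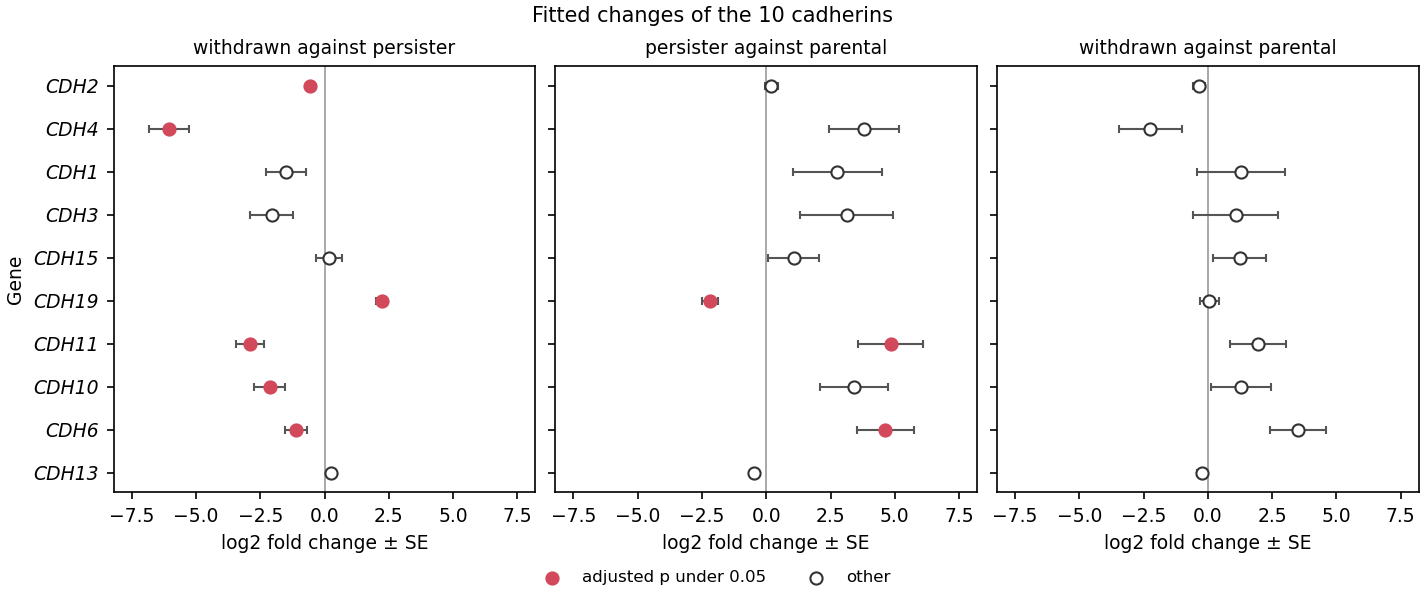
Fitted log2 fold change with its standard error for each cadherin in the 3 comparisons, with filled points for an adjusted p under 0.05. Filled points are 6 in withdrawn against persister cells, 3 in persister against parental cells and 0 in withdrawn against parental cells.

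Among the type I members, N-cadherin (CDH2), which melanoma cells use to adhere to fibroblasts and endothelium, was abundant throughout. Its level was 145, 141, 136, 145 and 145 CPM in withdrawn libraries 1 to 5, 164, 246, 205, 274 and 161 CPM in persister libraries 1 to 5, and 182 CPM in parental cells. Every withdrawn library lay below every persister library, and the parental library lay inside the persister range. CDH2 fell to 142 ± 3.85 CPM in withdrawn cells, against 210.0 ± 49.97 CPM in persister cells (SD, n = 5 each), a log2 fold change of -0.56 ± 0.14 (SE; adjusted p = 0.00584). Persister and parental cells differed by a log2 fold change of 0.20 ± 0.25, which was not called (adjusted p = 0.558). Without persister 1 and persister 5 that value was 0.41 and was called (adjusted p = 0.0390). The highest of the 5 withdrawn libraries was 1.07 times the lowest, against 1.70 times in persister cells.

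R-cadherin (CDH4), a close relative of N-cadherin known from retina and neurons, showed the widest fitted change of the 10 after withdrawal. It had 0.104, 0, 0.0148, 0.0427 and 0.0688 CPM in withdrawn libraries, 1.09, 5.35, 6.80, 1.45 and 1.54 CPM in persister libraries and 0.229 CPM in the parental library. Persister libraries were all above the parental one and withdrawn libraries all below it, with persister 2 and 3 more than 3 CPM above the others. The 0 counts of withdrawn 2 allow up to 0.0525 CPM, taking 3 counts as the limit for counting error alone. Withdrawn cells, with 16 counts in all 5 libraries together, were lower than persister cells, with 1040, by a log2 fold change of -6.04 ± 0.78 (66.0-fold; adjusted p = 7.797e-05). The level in persister cells averaged 3.25 ± 2.64 CPM (n = 5), and its log2 fold change of 3.81 ± 1.36 over the parental library missed the threshold (adjusted p = 0.0527). That value passed in 6 of 17 alternatives (adjusted p between 0.00188 and 0.135 over all 17), among them DESeq2 and the fit without persister 1 and persister 5. Withdrawn and parental cells differed by -2.24 ± 1.22 (adjusted p = 0.417).

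E-cadherin (CDH1), the epithelial cadherin whose loss is a mark of the epithelial-mesenchymal transition, was close to the detection limit. Withdrawn libraries had 0.119, 0.0525, 0.0445, 0.0997 and 0.0688 CPM, persister libraries 0.0614, 0.184, 0.0456, 0.0608 and 0.737 CPM, and the parental library 0.0306 CPM, which is 2 counts. Persister 5, with 54 of the 76 persister counts, stood above all other libraries, and withdrawn and persister libraries otherwise overlapped. Pooled over libraries, CDH1 was 7.30 times the parental level in persister cells (95% counting interval 1.95 to 61.3, exact) and 2.54 times in withdrawn cells (0.635 to 22.1). Neither was called (adjusted p = 0.237 and 0.774). The fitted log2 fold change in persister against parental cells was 2.77, but 1.44 without persister 5 (adjusted p = 0.347) and 1.56 without persister 1 and persister 5 (0.328), so that the ratio rests on 1 library. Not called either was the change in withdrawn against persister cells (log2 fold change -1.48 ± 0.78, adjusted p = 0.129). Without persister 5 that last value was -0.15, and without persister 1 and persister 5 it was -0.28.

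P-cadherin (CDH3), the neighbour of CDH1 on chromosome 16 and a cadherin of basal epithelium and hair follicle, was high in 1 library. It had 0.282, 0.368, 0.371, 0.285 and 0.482 CPM in withdrawn libraries, 5.31, 0.184, 1.25, 0.268 and 0.423 CPM in persister libraries and 0.168 CPM in parental cells. Persister 1 and, less so, persister 3 lay above all withdrawn libraries, and persister 2 and 4 below them. The log2 fold change was -2.05 ± 0.84 in withdrawn against persister cells (adjusted p = 0.0599) and 3.13 ± 1.81 in persister against parental cells (adjusted p = 0.208), and neither was called. Over the alternatives the value after withdrawal ran from -2.33 to -0.57, with adjusted p between 0.0120 and 0.371; it was -0.57 without persister 1 and -0.67 without persister 1 and persister 5. In persister against parental cells it was 1.65 without persister 1 (adjusted p = 0.222) and 1.75 without persister 1 and persister 5 (0.195). The 2 neighbours did not share their high library, since CDH3 was highest in persister 1 and CDH1 in persister 5.

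M-cadherin (CDH15), known from muscle satellite cells, had 0.445, 0.210, 0.282, 0.128 and 0.206 CPM in withdrawn libraries, 0.445, 0.148, 0.259, 0.0486 and 0.232 CPM in persister libraries and 0.107 CPM in parental cells. Culture 1 was the highest and culture 4 the lowest of both groups, which overlapped. Its log2 fold change after withdrawal was 0.17 ± 0.51 (adjusted p = 0.798). Skeletal muscle markers were near the detection limit as well: MYOG had 0 counts in all libraries, MYOD1 and MYF5 had 0 in withdrawn and parental cells, and the list of 6 summed to 0.157 to 0.504 CPM in withdrawn, 0.246 to 0.461 CPM in persister and 0.214 CPM in parental libraries.

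Of the type II members, CDH19 was the only one of all 10 called lower in persister cells and higher after withdrawal. CDH19 is known from Schwann cell precursors and melanocytes. Its level was 86.4, 92.6, 87.8, 84.7 and 91.2 CPM in withdrawn libraries, 14.9, 16.3, 11.7, 30.5 and 21.3 CPM in persister libraries and 85.5 CPM in parental cells. Persister libraries lay below all others without overlap, and the parental library lay inside the narrow withdrawn range. Withdrawn cells averaged 88.5 ± 3.31 CPM and persister cells 18.9 ± 7.35 CPM (SD, n = 5 each), a log2 fold change of 2.22 ± 0.22 (4.67-fold; adjusted p = 1.02e-05). Persister cells were lower than parental cells by a log2 fold change of -2.17 ± 0.32 (adjusted p = 0.0005656). Withdrawn and parental cells differed by 0.05 ± 0.36 (adjusted p = 0.972).

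Beside CDH19, markers of Schwann cells and neural crest were counted in the same libraries. The 6 reported here (FOXD3, NGFR, ERBB3, SOX10, S100B and CDH19) summed to 1695 to 1770 CPM in withdrawn, 98.3 to 327 CPM in persister and 1467 CPM in parental libraries, and without CDH19 to 1611 to 1679, 83.4 to 296 and 1382 CPM. None of the 6 was at 0 in a whole group. In withdrawn against persister cells 5 were called higher and 0 lower, beside 24.5% and 28.0% of all genes tested. In persister against parental cells 0 were called higher and 5 lower, beside 16.1% and 15.1%. NGFR was called in neither comparison. Its fitted change after withdrawal went the other way (log2 fold change -0.85 ± 0.39, adjusted p = 0.0922). DESeq2 called NGFR lower after withdrawal, as did the fits without persister 1 and without persister 1 and persister 5. SOX10, a transcription factor that neural crest cells and melanocytes need, had 813 ± 20.02 CPM in withdrawn cells, 51.8 ± 23.8 CPM in persister cells (n = 5 each) and 635 CPM in parental cells. Among persister libraries persister 4 had the highest level of both genes (30.5 CPM of CDH19 and 86.6 CPM of SOX10). Whether one bears on the other was not tested.

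OB-cadherin (CDH11), which mesenchymal cells and osteoblasts use, went the other way. It had 1.42, 0.368, 3.19, 1.60 and 0.770 CPM in withdrawn libraries, 10.4, 4.17, 10.3, 18.4 and 11.8 CPM in persister libraries and 0.382 CPM in parental cells. Every persister library was above every withdrawn one, and withdrawn 2 alone lay below the parental library. In withdrawn cells CDH11 averaged 1.47 ± 1.08 CPM, against 11.0 ± 5.07 CPM in persister cells (n = 5 each), a log2 fold change of -2.90 ± 0.54 (7.49-fold; adjusted p = 0.000985). Persister cells exceeded parental cells by 4.84 ± 1.27 (28.7-fold; adjusted p = 0.0147), a call that was lost when no low-count filter was used (adjusted p = 0.0525). Withdrawn and parental cells differed by 1.94 ± 1.09 (adjusted p = 0.433).

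Beside CDH11, markers of fibroblasts were counted in the same libraries. The list of 10 (COL1A1, COL1A2, COL3A1, DCN, LUM, PDGFRB, PDGFRA, FAP, THY1 and CDH11) summed to 38.5 to 53.3 CPM in withdrawn, 94.4 to 398 CPM in persister and 20.1 CPM in parental libraries, and without CDH11 to 38.1 to 51.7, 84.0 to 386 and 19.7 CPM. The persister sums rested in large part on LUM, which had the highest persister mean of the list. LUM had 172 ± 110.5 CPM in persister cells (SD, n = 5), 4.08 CPM in withdrawn and 2.16 CPM in parental cells. None of the 10 markers was at 0 in a whole group. In persister against parental cells 7 were called higher and 1 lower (PDGFRA), beside 16.1% and 15.1% of all genes tested. In withdrawn against persister cells 1 was called higher and 8 lower, beside 24.5% and 28.0%. COL1A2 and THY1, among those called in both comparisons, reached 10 counts in persister libraries only. For COL1A2 and THY1 the filter thus favoured a rise over parental cells and a fall after withdrawal. Limma-voom called 4 higher and 1 lower in persister against parental cells, and 1 higher and 7 lower in withdrawn against persister cells. Their part in the level of CDH11 was not tested.

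CDH10, a neuronal type II cadherin, had 0.889, 1.02, 5.19, 1.24 and 1.91 CPM in withdrawn libraries, 9.01, 4.35, 7.27, 3.49 and 20.9 CPM in persister libraries and 0.841 CPM in parental cells. The libraries overlapped through withdrawn 3, which exceeded persister 2 and 4. CDH10 fell to 2.05 ± 1.80 CPM in withdrawn cells, against 9.00 ± 6.99 CPM in persister cells (n = 5 each), a log2 fold change of -2.13 ± 0.61 (4.39-fold; adjusted p = 0.013). Without persister 1 and persister 5, the libraries with the highest levels and the fewest cycling transcripts, the value was -1.30 and was not called (adjusted p = 0.0906). Without withdrawn 3 it was -2.83 (adjusted p = 0.00170). Persister cells exceeded parental cells by 3.42 ± 1.33, which was not called (adjusted p = 0.0738) but passed with DESeq2 (adjusted p = 0.00184) and without withdrawn 3 (0.0336). Without persister 1 and persister 5 it was 2.58 (adjusted p = 0.105).

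K-cadherin (CDH6), known from kidney tubules and early neural crest, was low in all groups. It had 0.741, 0.543, 1.25, 0.655 and 0.385 CPM in withdrawn libraries, 0.491, 1.31, 1.23, 2.29 and 2.49 CPM in persister libraries and 0.0612 CPM, or 4 counts, in the parental library. The parental library lay below all others, and withdrawn and persister libraries overlapped. Persister cells exceeded the parental library by a log2 fold change of 4.64 ± 1.12 (24.8-fold; adjusted p = 0.00908), a call that limma-voom did not make (adjusted p = 0.0681). Withdrawn cells, at 0.714 ± 0.326 CPM, were lower than persister cells, at 1.56 ± 0.821 CPM (n = 5 each), by -1.13 ± 0.43 (adjusted p = 0.0430). That call was lost in 9 of 18 alternatives, among them the fit with the culture number as a block (log2 fold change -1.05, adjusted p = 0.105) and the fits without persister 3, 4 or 5 or without withdrawn 1, 2, 4 or 5 (adjusted p between 0.0509 and 0.0971). Against parental cells, CDH6 in withdrawn cells had a log2 fold change of 3.51 ± 1.08 (adjusted p = 0.161), which passed with DESeq2 (0.0173), in a fit of those libraries alone (0.00692) and without persister 1 and persister 5 (0.0307).

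T-cadherin (CDH13), the GPI-anchored member and a receptor for adiponectin, was abundant in every library and was called in none of the comparisons. It had 102, 129, 120, 105 and 129 CPM in withdrawn libraries, 88.3, 113, 111, 98.4 and 83.5 CPM in persister libraries and 136 CPM in parental cells. The parental library was the highest, and withdrawn 1 and 4 lay inside the persister range. The log2 fold change was 0.24 ± 0.11 in withdrawn against persister cells (adjusted p = 0.0795) and -0.46 ± 0.18 in persister against parental cells (adjusted p = 0.0741). Both passed once persister 2 was left out (adjusted p = 0.0381 and 0.0387).

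To compare genes with each other, counts were divided by the length of the merged exons of each gene and rescaled to the same total in each library (TPM). The 10 genes summed to 185 ± 6.51 TPM in withdrawn cells, 177 ± 43.7 TPM in persister cells (SD, n = 5 each) and 236 TPM in parental cells, with persister libraries between 125 and 234 TPM on either side of the withdrawn ones, which ran from 180 to 196 TPM. CDH2 made up most of the sum everywhere: 54.3 ± 2.24% in withdrawn cells, 72.3 ± 5.38% in persister cells and 59.6% in parental cells. CDH19 held 24.3 ± 0.419% in withdrawn, 4.72 ± 1.46% in persister and 20.1% in parental cells, and CDH13 held 19.7 ± 1.65%, 15.4 ± 1.96% and 19.7%. The share of CDH10 was 1.05 ± 0.927% in withdrawn cells, 4.63 ± 4.03% in persister cells and 0.372% in parental cells, and that of CDH11 was 0.209 ± 0.154%, 1.43 ± 0.571% and 0.0462%.

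**Figure D3:**
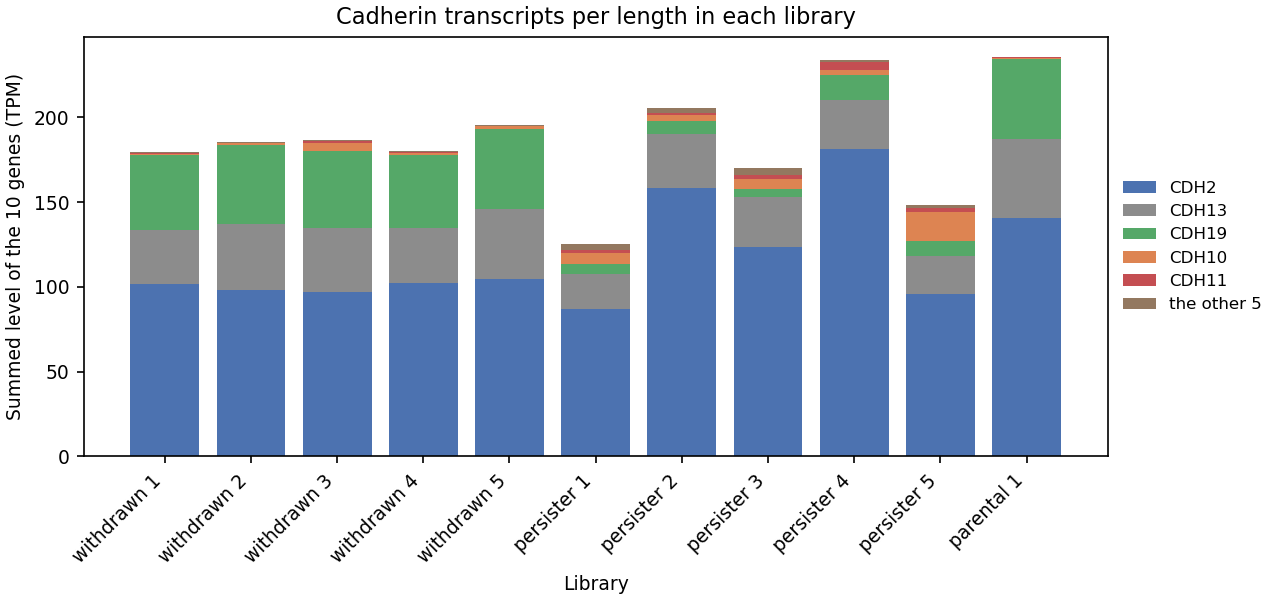
TPM of the 10 cadherins stacked for each library, with withdrawn libraries on the left, persister libraries in the middle and the parental library on the right. The CDH19 segment is thin in the 5 persister libraries, where it is 2.98% to 6.23% of the bar, and 23.9% to 24.99% in the 5 withdrawn ones.

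The order of TPM levels in withdrawn cells began with CDH2 (101), CDH19 (45.1), CDH13 (36.6), CDH10 (1.97) and CDH11 (0.385), and in these first ranks each gene's libraries lay apart from those of the next. CDH11, CDH6 (0.202), CDH3 (0.201) and CDH15 (0.192) overlapped neighbour by neighbour, CDH15 lay apart from CDH1 (0.0435), and CDH1 overlapped CDH4 (0.0220). In persister cells CDH2 (129), CDH13 (26.7) and CDH19 (8.41) lay apart from each other. From CDH19 on every neighbour overlapped: CDH10 (7.22), CDH11 (2.49), CDH4 (1.34), CDH3 (0.654), CDH6 (0.387), CDH15 (0.141) and CDH1 (0.106). In the parental library CDH2 (141), CDH19 (47.5) and CDH13 (46.4) led, CDH10 had 0.876, and the remaining 6 lay between 0.0188 and 0.119.

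**Figure D4:**
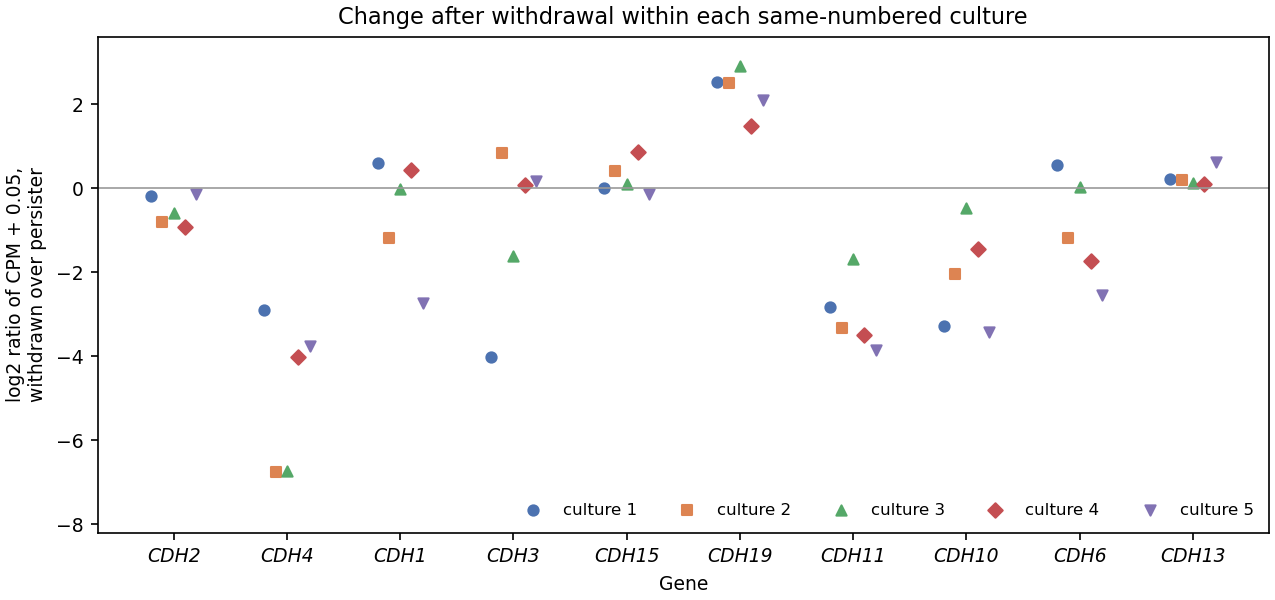
Log2 ratio of CPM + 0.05, withdrawn over persister, for the 10 cadherins in the 5 same-numbered cultures, one symbol per culture. All 5 symbols lie above 0 for CDH19 and CDH13 and below 0 for CDH2, CDH4, CDH10 and CDH11; the other 4 genes have symbols on either side.

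Within same-numbered cultures, CDH19 was higher after withdrawal in 5 of 5, by a ratio of 2.77 to 7.52 (median 5.69), and CDH13 in 5 of 5, by 1.07 to 1.55. CDH2 was lower in 5 of 5 (withdrawn over persister 0.530 to 0.902), as were CDH4 (0 to 0.0951), CDH10 (0.0917 to 0.714) and CDH11 (0.0651 to 0.310). CDH6 was lower in 3 of 5, with ratios from 0.155 to 1.51, and CDH1 and CDH15 had ratios on either side of 1. The cadherins differed in which persister culture was highest: culture 1 for CDH3 and CDH15, culture 2 for CDH13, culture 3 for CDH4, culture 4 for CDH2, CDH11 and CDH19, and culture 5 for CDH1, CDH6 and CDH10. Only for CDH15 was the highest withdrawn library of the same number as the highest persister library.

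Among the 9 other type I and II cadherins, 8 were tested. In withdrawn against persister cells 0 were called higher and 6 lower, beside 24.5% and 28.0% of all genes tested. In persister against parental cells the same 6 (CDH5, CDH7, CDH8, CDH9, CDH18 and CDH24) were called higher and 0 lower, beside 16.1% and 15.1%. These comparisons share the persister libraries. Without persister 1 and persister 5 the counts were 1 higher and 6 lower, and 5 higher and 0 lower. With limma-voom they were 0 higher and 6 lower in withdrawn against persister cells, but 3 higher and 0 lower in persister against parental cells, where 12.9% of all genes were called higher and 16.5% lower. The median log2 fold change of the 8 was -3.66 in withdrawn against persister cells and 4.03 in persister against parental cells, beside -0.03 and 0.09 over all genes tested. CDH5, CDH9 and CDH20 reached 10 counts in persister libraries only, so they were tested through the group where they were highest. For CDH5 and CDH9 the filter thus favoured a fall after withdrawal and a rise over parental cells.

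CDH18, a type II cadherin of the central nervous system, had 2.33, 1.68, 2.61, 3.23 and 2.15 CPM in withdrawn libraries, 21.8, 25.5, 32.0, 30.7 and 23.6 CPM in persister libraries and 0.551 CPM in parental cells. Its libraries formed separate ranges, with withdrawn cells between the other groups. CDH18 was lower in withdrawn than in persister cells by a log2 fold change of -3.48 ± 0.19 (11.1-fold; adjusted p = 1.123e-07) and higher in persister than in parental cells by 5.60 ± 0.45 (48.4-fold; adjusted p = 9.203e-06). It was the single gene of this list called in withdrawn against parental cells (2.12 ± 0.38, 4.35-fold; adjusted p = 0.0392). That last call was lost in 6 of 17 alternatives: limma-voom and the fits without persister 3 or without withdrawn 1, 3, 4 or 5.

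CDH8, another neuronal type II cadherin, had 1.60 ± 0.306 CPM in withdrawn cells, 26.6 ± 17.2 CPM in persister cells (n = 5 each) and 1.28 CPM in parental cells, a log2 fold change of -4.06 ± 0.48 after withdrawal (adjusted p = 4.593e-05) and 4.37 ± 1.02 in persister against parental cells (0.00867). CDH24 had 4.39 ± 0.459, 9.75 ± 2.15 and 3.55 CPM in withdrawn, persister and parental cells, 2.22-fold lower after withdrawal (adjusted p = 0.000132). VE-cadherin (CDH5), the cadherin of endothelium, stayed below 1 CPM in every library, with 5 counts in all withdrawn libraries, 139 in persister libraries and 2 in parental cells. Its pooled level in persister cells was 13.3 times the parental one (95% counting interval 3.63 to 111). CDH9 had 1 count in parental cells, and its pooled persister level was 212 times that (37.9 to 8364).

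CDH7, known from neural crest, averaged 0.963 ± 0.871 CPM in withdrawn cells, 13.8 ± 10.8 CPM in persister cells (n = 5 each) and 0.291 CPM in parental cells. Persister 1 and persister 5 were highest, at 22.2 and 26.9 CPM, and persister 3 lowest, at 1.40 CPM. The fitted log2 fold change was -3.84 ± 0.81 after withdrawal (adjusted p = 0.00237), -2.80 without persister 1 and persister 5 (0.0208) and -4.53 without withdrawn 3 (0.00143). In persister against parental cells it was 5.56 ± 1.92 (adjusted p = 0.0478), and that call was lost in 10 of 17 alternatives, among them the fits without persister 1, 4 or 5, without persister 1 and persister 5 together and without withdrawn 1, 4 or 5 (adjusted p up to 0.225 over all 17). CDH12 had 22.3 ± 5.08 CPM in withdrawn cells, 17.4 ± 7.49 CPM in persister cells and 19.6 CPM in parental cells and was not called. CDH20 stayed below 1 CPM in every library and was not called in persister against parental cells (adjusted p = 0.425), and CDH22 did not pass the filter on low counts.

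**Figure D5:**
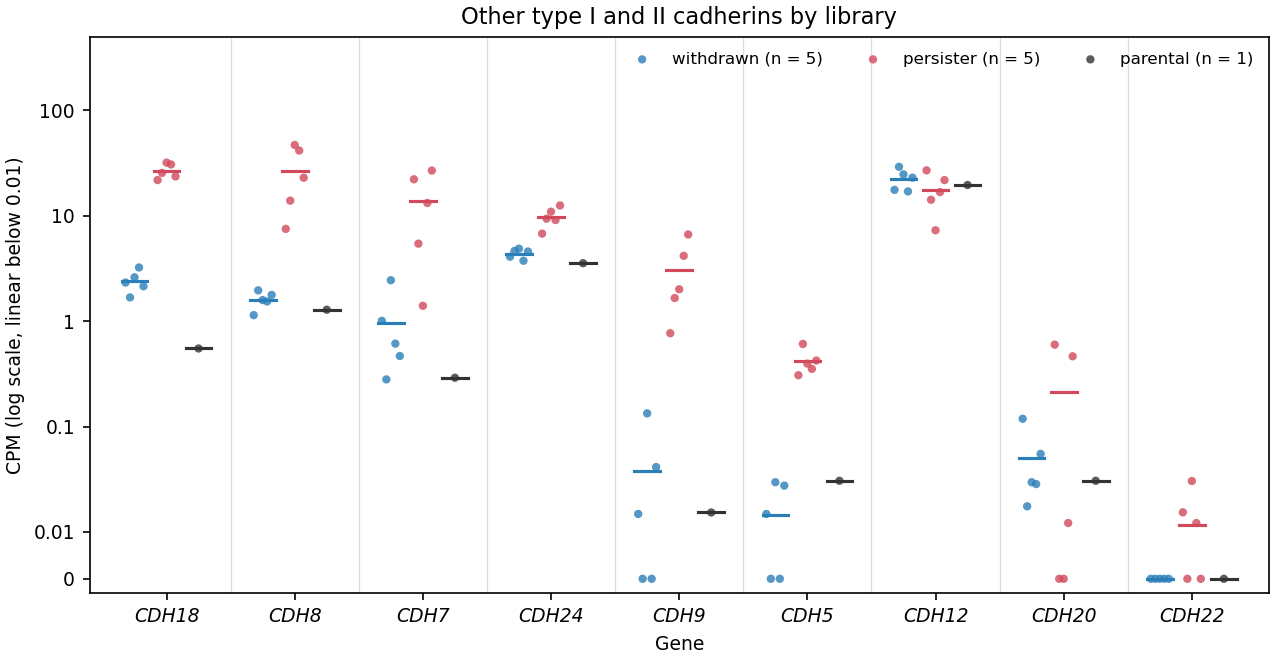
CPM of the 9 other type I and II cadherins in each library, on a log axis that is linear below 0.01, drawn as points with group means as lines. Persister points of CDH18, CDH8, CDH24, CDH9 and CDH5 lie above all withdrawn points and above the parental one, while those of CDH12 overlap the withdrawn points.

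The catenins and actin linkers of the adherens junction, a list of 19 genes that were all tested, split in direction: 7 were called higher and 8 lower in withdrawn against persister cells, and 5 higher and 4 lower in persister against parental cells. The median log2 fold change was -0.21 and 0.75, beside -0.03 and 0.09 over all genes tested. Of all genes tested, 24.5% were called higher and 28.0% lower in the first comparison, and 16.1% and 15.1% in the second. Alpha-catenin (CTNNA1), which ties the cadherin-bound catenins to actin, had 862, 907, 879, 852 and 839 CPM in withdrawn libraries, 515, 518, 489, 527 and 440 CPM in persister libraries and 794 CPM in parental cells. Persister libraries were below all others. CTNNA1 was 1.74-fold higher in withdrawn than in persister cells (log2 fold change 0.80 ± 0.08, adjusted p = 6.68e-06) and 1.59-fold lower in persister than in parental cells (-0.67 ± 0.13, adjusted p = 0.00225).

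Beta-catenin (CTNNB1), which binds the cadherin tail and also carries Wnt signals, averaged 555 ± 26.3 CPM in withdrawn, 374.9 ± 63.2 CPM in persister (n = 5 each) and 556 CPM in parental cells, and was called higher after withdrawal (0.57 ± 0.11, adjusted p = 0.00128) and lower in persister cells when set against parental cells (-0.57 ± 0.19, adjusted p = 0.0368; 0.179 in the alternative with the highest value). Without persister 3 that last call was lost. Plakoglobin (JUP), which can take the place of beta-catenin and also serves desmosomes, had 5.36 to 8.35 CPM in withdrawn libraries, 102, 18.9, 18.6, 25.2 and 139 CPM in persister libraries and 5.11 CPM in parental cells. Its change after withdrawal was -3.08 ± 0.60 (adjusted p = 0.00136), and -1.54 without persister 1 and persister 5 (1.553e-05). p120-catenin (CTNND1), which holds cadherins at the surface, was not called in persister against parental cells (adjusted p = 0.842).

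Nectins, adhesion molecules that join cadherins at the junction through afadin, were on the same list. NECTIN2 had 27.3 ± 1.17 CPM in withdrawn, 55.2 ± 8.33 CPM in persister (n = 5 each) and 17.3 CPM in parental cells, 2.03-fold lower after withdrawal (adjusted p = 1.048e-05) and 3.19-fold higher in persister than in parental cells (adjusted p = 0.0001609). NECTIN4, a nectin of epithelium and of several carcinomas, had 0.210 to 0.860 CPM in withdrawn libraries, 4.18 to 16.3 CPM in persister libraries and 0.0765 CPM in parental cells, and was lower after withdrawal by -4.09 ± 0.46 (adjusted p = 2.672e-05). PLEKHA7, a p120-catenin partner of the apical junction, had 0.904 ± 0.0853, 19.3 ± 10.1 and 2.13 CPM in withdrawn, persister and parental cells (log2 fold change after withdrawal -4.41 ± 0.44, adjusted p = 1.322e-05). In withdrawn against parental cells 0 of the 19 were called by edgeR and by limma-voom, while DESeq2 called 2 and 5 had an unadjusted p under 0.05.

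Of 12 genes of cadherin cleavage and turnover, 2 were called higher and 8 lower in withdrawn against persister cells. In persister against parental cells 5 were called higher and 2 lower. Beside them, 24.5% of all genes tested were called higher and 28.0% lower after withdrawal, and 16.1% and 15.1% in persister against parental cells. ADAM10, the protease known to shed the extracellular part of E- and N-cadherin, was 1.84-fold higher after withdrawal (300 ± 10.2 CPM, against 163 ± 25.8 CPM in persister cells, n = 5 each; adjusted p = 3.339e-05) and 2.20-fold lower in persister than in parental cells, which had 359 CPM (adjusted p = 0.0005205). ADAM15, another metalloprotease of this family, had 84.8 ± 2.84, 159 ± 11.8 and 84.0 CPM in withdrawn, persister and parental cells, and was 1.87-fold lower after withdrawal (adjusted p = 1.9e-06). Nicastrin (NCSTN), a subunit of the gamma-secretase that cuts the fragment left in the membrane, had 164 ± 9.63, 356 ± 60.8 and 135 CPM and was 2.17-fold lower after withdrawal (adjusted p = 1.117e-05).

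The 8 transcription factors known to repress CDH1 were all expressed, summing to 283 to 330 CPM in withdrawn, 158 to 260 CPM in persister and 269 CPM in parental libraries. In withdrawn against persister cells 4 were called higher (ZEB1, ZEB2, SNAI1 and TCF3) and 2 lower (TWIST2 and TCF4). In persister against parental cells 3 were called higher (SNAI2, TWIST2 and TCF4) and 2 lower (ZEB1 and TCF3). The shares of all genes tested were 24.5% higher and 28.0% lower after withdrawal, and 16.1% and 15.1% in persister against parental cells. ZEB1 had 80.2, 82.2, 80.1, 91.1 and 85.4 CPM in withdrawn libraries, 24.3, 49.4, 24.6, 26.9 and 24.4 CPM in persister libraries and 72.5 CPM in parental cells, with no overlap between persister and the other libraries. It was 2.80-fold higher after withdrawal (adjusted p = 5.911e-05) and 2.42-fold lower in persister than in parental cells (adjusted p = 0.00734). SNAI2 averaged 23.9 ± 9.71 CPM in persister cells and 6.03 CPM in parental cells (3.97-fold, adjusted p = 0.0268). The call of TCF3 after withdrawal was lost in 8 of 18 alternatives, and that of TWIST2 in persister against parental cells was lost without persister 3. CDH1 itself was called in none of the 3 comparisons.

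Desmosomal cadherins and plaque proteins, which form the other cadherin-based junction, had 8 of 12 genes tested. Of these, 2 were called higher and 2 lower in withdrawn against persister cells, and 1 higher and 1 lower in persister against parental cells. Among all genes tested, 24.5% were called higher and 28.0% lower after withdrawal, and 16.1% and 15.1% in persister against parental cells. Desmoglein 2 (DSG2) had 84.8 ± 3.79, 43.9 ± 10.4 and 77.1 CPM in withdrawn, persister and parental cells, 1.93-fold higher after withdrawal (adjusted p = 0.0001696). PERP, a tetraspan protein of desmosomes and a p53 target, had 99.5 ± 1.23, 265 ± 39.6 and 76.0 CPM and was 2.66-fold lower after withdrawal (adjusted p = 8.51e-07). The list of 9 epithelial and keratinocyte markers summed to 41.7 to 47.7 CPM in withdrawn, 49.4 to 66.3 CPM in persister and 51.5 CPM in parental libraries, and KRT1 was at 0 throughout. Endothelial markers summed to 17.0 to 28.1, 6.10 to 23.0 and 19.7 CPM, the 4 leukocyte markers PTPRC, CD3E, CD14 and ITGAM to 0.0688 to 0.299, 0.277 to 0.669 and 0.245 CPM, and the 8 melanocyte markers to 1033 to 1139, 392 to 1002 and 789.5 CPM. That last sum joins genes of opposite direction. Of the 7 tested, 3 were called higher and 3 lower in withdrawn against persister cells, and 4 higher and 2 lower in persister against parental cells. The epithelial and endothelial sums do so too. After withdrawal 2 epithelial and keratinocyte markers were called higher and 2 lower, and 3 endothelial markers higher and 3 lower.

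In the fit of persister and parental libraries alone, which called 2569 genes where the fit of all 11 libraries called 7391, the calls of CDH7, CDH8, CDH24, CTNNA1, CTNNB1, PLEKHA7, ZEB1, TCF3, TCF4, SNAI2 and TWIST2 in persister against parental cells were lost. So were those of COL1A2, DCN, PDGFRA, FOXD3, DSG2 and PTPRC, while CDH6, CDH11 and CDH19 kept theirs. Those of CDH18, NECTIN2, NECTIN4, ADAM10, ADAM15, NCSTN, PERP and SOX10 were made in each of the 17 alternatives.

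For the 5 cadherins with a mean of at least 5 CPM, the genes of most similar pattern were taken from 9787 or 9788 well-expressed protein-coding genes by the root mean square difference of log2 CPM, each gene centred on its own mean over the 11 libraries. PELI1 (0.157), KIAA1211 (0.216) and TANC2 (0.243) were nearest to CDH19, whose own root mean square around its mean was 1.19. PPIL1 (0.0906) and GALNT1 (0.0954) were among the nearest to CDH2 (own value 0.328), and REPS1 (0.0909), PRPF38B (0.0981) and STK35 (0.1) to CDH13 (0.217). CDH11 had FAM198B (0.701), P3H2 (0.709) and HSPB8 (0.719) nearest (own value 1.90), and CDH10 had CSF1 (0.665), UBA7 (0.677) and EPHX1 (0.684; own value 1.46). PELI1 had 42.0, 8.91 and 42.7 CPM in withdrawn, persister and parental cells.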

How the data were processed

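Read counts per gene, 1 column for each of the 11 libraries, were deposited by the authors as whole numbers that were not normalized, with replicates not pooled. The libraries were stranded mRNA libraries from column-purified RNA, per the labels' protocols. Per the submitters' processing notes, reads went through bcl2fastq, HISAT2 with hg38 and HTSeq; their versions, the annotation release and the strand setting were not given in the sources used here. All 58721 IDs matched GENCODE release 29, which gave symbols, coordinates and exon lengths.

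The gene tests used edgeR 4.0.16 (R 4.3.3) with TMM factors and a robust quasi-likelihood fit of 3 groups, which leaves 8 residual degrees of freedom. Low genes were removed by filterByExpr at a minimum count of 10 and a minimum total of 15, and p-values of the remaining 23693 genes were adjusted by Benjamini-Hochberg. CPM, TPM and culture ratios were computed from the deposited counts. Intervals for genes with 1 to 3 counts are exact binomial and cover counting error only. Alternatives were RLE scaling, DESeq2 1.42.0, limma-voom (limma 3.58.1), other filters, the groups of a comparison alone, a block for culture number, each persister or withdrawn library left out and, chosen after seeing the data, persister 1 and persister 5 left out and exon lengths of the basic transcript set. The scripts were tested on simulated data.

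The pairing of withdrawn with persister samples comes from their titles, which carry the culture number. Across genes, the deviations of same-numbered libraries from their group means correlated at 0.0484 to 0.0909, and in 5 of 5 pairs no other number gave a higher value. The 10 cadherins and the gene and marker lists were chosen with earlier results of these data known. From each pathway list the text names the 3 genes with the smallest adjusted p per comparison and genes needed beside a cadherin. CDH7, CDH9, CDH12, CDH20, CTNNA3, ZEB2, SNAI1 and SNAI2 were named after their values were seen. Some genes that the lists or this rule name are not reported here, and marker sums were taken without them where the text names the genes summed.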

Additional observations from a re-analysis of the deposited data

Results flagged for a closer look

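In 3 of the 20 sets of 5 libraries examined (10 cadherins in persister and in withdrawn cells), the gap between an extreme library and its nearest neighbour was more than 0.71 of the range, Dixon's critical value for 5 samples, which chance passes in about 1 of 20 sets. CDH1 had 0.737 CPM in persister 5, while the other 4 persister libraries had 0.0456 to 0.184 CPM. CDH3 had 5.31 CPM in persister 1, while the other 4 had 0.184 to 1.25 CPM. CDH10 had 5.19 CPM in withdrawn 3, while the other 4 withdrawn libraries had 0.889 to 1.91 CPM.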

How the results depend on the processing

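Of 513 values of single cadherins under the alternatives, 480 kept their direction and their side of the threshold, 12 no longer passed it, 19 newly passed it and 2 changed sign. The sign changes were those of CDH15 in withdrawn against persister cells, at -0.10 without persister 4 and -0.13 without withdrawn 1, beside 0.17 with all libraries and a range of -0.13 to 0.57 over all libraries left out in turn, none of them called; the cause was not tested. The calls of CDH2, CDH4, CDH11 and CDH19 after withdrawal were made in all 18 alternatives. In persister against parental cells 5 cadherins were called with DESeq2 and 5 without persister 1 and persister 5. The fit of all libraries called 3. Calls over all genes rose as well, from 7391 in that fit to 8497 with DESeq2 (4654 higher and 3843 lower). Without persister 1 and persister 5 they were 4628 higher and 4337 lower. With the persister and parental groups alone (fewer libraries) all genes called numbered 2569. In withdrawn against parental cells 1 cadherin was called with DESeq2, 2 with those groups alone and 1 without persister 1 and persister 5, where 0 were called. Genes called there numbered 102, against 1184 with DESeq2, 155 with at least 10 counts in 5 libraries, 6593 with those groups alone and 2086 without persister 1 and persister 5; the cause was not tested. Leaving out each library in turn gave 3 to 4 cadherins in persister against parental cells, 5 to 8 in withdrawn against persister cells and 23 to 558 genes in withdrawn against parental cells. With limma-voom the genes called in persister against parental cells split into 3059 higher and 3915 lower, against 3819 and 3572. The replicate block gave 5 cadherins instead of 6, and 10630 genes instead of 12427; CDH6 lost its call and no other cadherin did. With exon lengths of the basic set the share of CDH11 in persister cells was 2.41% instead of 1.43%, and that of CDH19 in withdrawn cells 23.6% instead of 24.3%. A single parental library, and 2 to 25 parental counts for 6 of the 10 cadherins, limit the comparisons with parental cells.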
